A study of Mus musculus with 4 samples.

Results

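The sites described here are places in the mouse genome where the peaks of 3 FLAG chromatin immunoprecipitation (ChIP-seq) libraries met on chromatin marked by histone H3 dimethylated at lysine 4 (H3K4me2). A site was an Etv6 peak on chromosomes 1 to 19 that overlapped a Pax6 peak and an EGFP_OK peak by at least 1 bp and whose summit lay inside an H3K4me2 peak. The rule returned 2012 sites out of the 30984 peaks of the Etv6 list, of which 30368 lay on chromosomes 1 to 19. They made up 6.63% of the Etv6 peaks on those chromosomes and 12.6% of the 15921 Etv6 peaks with a summit in H3K4me2. Since the sites were chosen by these lists, neither their presence in them nor these shares are findings.

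The libraries were made from mouse cells resembling neural progenitors, which came from 129/SvJ embryonic stem cells and were used between passages 15 and 18 after formaldehyde fixation, per the labels. The Pax6 and Etv6 libraries, whose titles name NS, and the EGFP_OK library, whose title names N31, were made with M2, an antibody to the FLAG peptide that tags the protein. The H3K4me2 library was precipitated with an antibody against that mark, and its title names N31, Oct4, EGFP and 0 hr. Each group held 1 library and no control library was used. Which protein carried the tag in EGFP_OK, what drove the tagged proteins and whether NS and N31 are the same cells are not given in the sources used here. Without replicates no difference between libraries or classes of sites could be tested, so intervals are 95% intervals for counting error only and neighbouring sites are not independent. No gene table of the files' genome build, mm9, was used, so sites are given by position, without genes, and the labelled cell type was not checked against marker genes.

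As background, Pax6 is a transcription factor with a paired domain and a homeodomain that patterns the eye and the dorsal forebrain and acts in neural progenitors. Etv6 is a member of the ETS family, whose members bind DNA around a GGAA core, and it is known mainly as a repressor. H3K4me2 is deposited on nucleosomes at active and poised promoters and enhancers. Regulatory elements of that kind commonly hold a nucleosome-poor stretch where factors bind, flanked by the marked nucleosomes.

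The libraries differed in depth mainly after removal of duplicates, and the Pax6 library was the shallowest. Before that removal Etv6 held 31059965 tags, H3K4me2 29371583, EGFP_OK 35255051 and Pax6 27560633. After removal of duplicates the Etv6 library kept 24071748 tags, H3K4me2 kept 24550365, EGFP_OK kept 21498324 and Pax6 kept 5288154. The duplicates removed ranged from 16% of tags in H3K4me2 to 81% in Pax6. At the 2012 sites the Etv6 peak held a median of 90 tags (interval 87 to 93), the EGFP_OK peak 59 (57 to 61), the Pax6 peak 23 (23 to 24) and the H3K4me2 peak 261 (250 to 272). Values at Pax6 peaks are therefore the least precise.

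The sites were nearly all single places. They used 2007 different Pax6 peaks, 2004 EGFP_OK peaks and 2003 H3K4me2 peaks, and at most 2 sites shared a peak. The Pax6 summit lay inside H3K4me2 as well at 98.4% of the sites (97.8 to 98.9), beside 97.6% (97.1 to 98.1) at marked Etv6 and Pax6 peaks without EGFP_OK. The EGFP_OK summit did so at 96.5% (95.6 to 97.3), beside 97.0% (96.3 to 97.7) at marked Etv6 and EGFP_OK peaks without Pax6.

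Several sites sat near the limits of the rule. The peak caller kept peaks with a score of at least 50, where the score is a multiple of −log10 of its p-value, and the lowest scores among the sites were 50.01 in Pax6, 50.15 in EGFP_OK and 50.18 in Etv6 and H3K4me2. At least 1 of the FLAG scores was under 60 at 636 sites (31.6%), against 30.8% over all 2758 sites of the FLAG lists, most often the Pax6 score, which was under 60 at 412. A score of at least 100 in every FLAG list was reached at 410 sites, or 20.4%, against 20.6% over all 2758 sites of the FLAG lists whether marked or not. Just inside the H3K4me2 boundary, 67 sites had their Etv6 summit less than 100 bp from the peak's edge, with a median Etv6 fold enrichment of 8.27. Just outside it, 42 sites of the 3 FLAG lists had their summit up to 100 bp from an H3K4me2 edge, with a median of 7.745. Most unmarked sites lay farther away, at a median of 12071.5 bp (10351 to 13695) from the nearest H3K4me2 edge over the 746 of them.

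The distance between the summits of the FLAG libraries varied widely among the sites. All 3 fell within 100 bp of each other at 526 sites, or 26.1% (24.2 to 28.1), against a background of 27.0% over the 2758 sites of the FLAG lists with or without H3K4me2. Outside H3K4me2 the share was 29.2% (26.0 to 32.6), and with a score of at least 100 asked of every FLAG list it was 45.3% (37.4 to 53.4) outside and 34.6% (30.04 to 39.4) inside. The median span from the first to the last of the 3 summits was 196 bp (183 to 210), and it ranged from 1 to 3221 bp. The Etv6 and Pax6 summits were a median of 85 bp apart (79 to 89), the Etv6 and EGFP_OK summits 115 bp (106 to 122) and the Pax6 and EGFP_OK summits 132.5 bp (121 to 144). Pax6 and Etv6 were thus nearest to each other, and the chromatin fragments were 200 to 500 bp long, per the labels' protocols. The titles of this pair name NS and that of EGFP_OK names N31, so the tagged protein and the cells cannot be told apart. Partner peaks were also chosen by nearness to the Etv6 summit. At the 746 sites outside H3K4me2 the median span was 183.5 bp (170 to 207), within the counting error of the marked sites. There the Etv6 and Pax6 summits were 67.5 bp apart (60 to 76), closer than at the marked sites by their intervals.

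**Figure D1:**
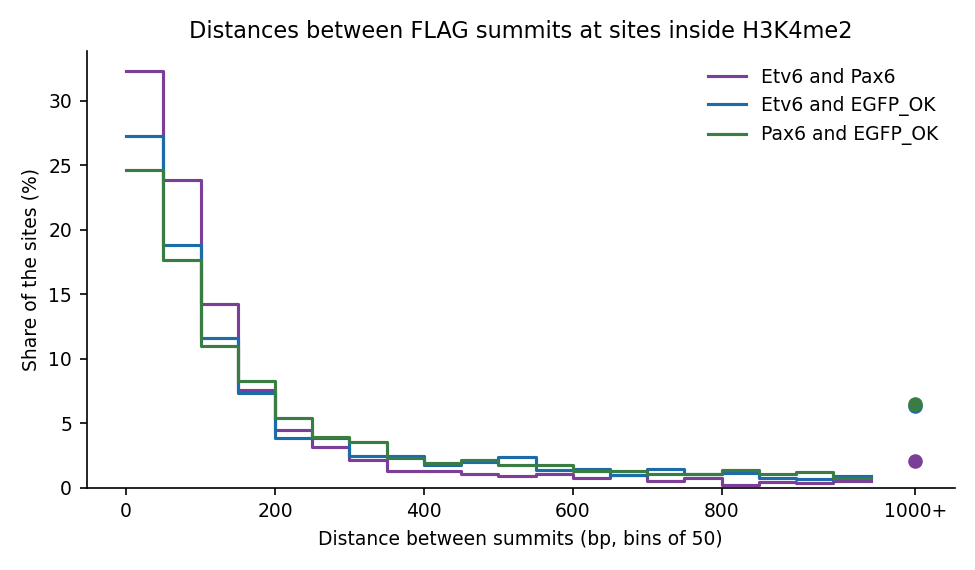
Share of the 2012 sites (%, vertical) by the distance between summits (bp, horizontal, bins of 50) for each pair of FLAG libraries, with dots at the right for distances of 1000 bp and more. All 3 lines are highest at 0 to 50 bp, and the pair of Etv6 and Pax6, with a median of 85 bp, has the fewest distant summits.

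Where the summits did not meet, it was most often the EGFP_OK summit that stood apart. Among the 499 sites with a span over 500 bp, Etv6 and Pax6 were the closest pair at 315, or 63.1% (58.7 to 67.4). The Pax6 summit was the one apart at 20.8% (17.4 to 24.7) and the Etv6 summit at 16.0% (12.9 to 19.6). These spread sites had wide peaks, with a median Etv6 width of 1736 bp (1674 to 1815) against 1266.5 bp (1218 to 1314) at the sites within 100 bp. They also carried more tags, with medians of 75 (68 to 81) against 58 (54 to 62) in EGFP_OK and 105 (99 to 112) against 89.5 (83 to 95) in Etv6, and lay more often in H3K4me2 peaks over 3 kb, at 53.9% (49.4 to 58.3) against 38.4% (34.2 to 42.7). Peak width bounds how far apart summits of overlapping peaks can be, and its part in these differences was not tested. In the comparison of EGFP_OK with Pax6 and Etv6, the tagged protein and the cells named in the titles cannot be told apart.

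Sites with tight summits had higher fold enrichment in every FLAG library. The authors' fold enrichment is the height of the summit over the local background of the same library. Its Etv6 median was 8.40 (8.13 to 8.74) at the sites with a span of up to 100 bp and 6.16 (5.94 to 6.36) at those over 500 bp. For Pax6 the medians were 11.4 (10.97 to 11.9) and 9.08 (8.78 to 9.33), and for EGFP_OK 7.36 (7.08 to 7.65) and 6.13 (5.93 to 6.36). Across the 2012 sites the rank correlation of span with fold enrichment was -0.36 for Etv6, -0.34 for Pax6 and -0.23 for EGFP_OK. Each correlation runs across sites of the same libraries and is a description only. The tight group includes the 44 sites described next, with median folds of 19.7 in Etv6, 29.2 in Pax6 and 19.1 in EGFP_OK. These medians and correlations were not computed without them.

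A small set of 44 sites stood apart from the rest, and its limit was chosen after the values had been seen. At these sites the H3K4me2 summit coincided with the 3 FLAG summits, all 4 lying within 30 bp. Their H3K4me2 peaks were narrow, with a median width of 513.5 bp (449 to 579) against 2795 bp (2701 to 2876) at the other 1968, and 41 of the 44 were at most 1 kb wide. Fold enrichment was high in every library, with medians of 19.7 in Etv6, 29.2 in Pax6, 19.1 in EGFP_OK and 16.8 in H3K4me2, against 7.04, 10.2, 6.55 and 5.30 at the other sites.

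The 44 sites also held similar numbers of tags in the FLAG libraries although the kept tags differed, with medians of 68 in Etv6, 52 in Pax6 and 68 in EGFP_OK. Total tags before removal of duplicates differed less, at 31059965 in Etv6, 27560633 in Pax6 and 35255051 in EGFP_OK. The Pax6 peak had a median of 0.863 times the tags of the Etv6 peak (0.797 to 0.898), against 0.265 (0.260 to 0.273) at the other sites and 0.220 for the kept tags of the libraries. EGFP_OK tags were 1.04 times the Etv6 tags (1.01 to 1.11), against 0.699 (0.667 to 0.727) at the others and 0.893 for the kept tags. Near the limit, sites with all 4 summits 10 to 30 bp apart had a median scaled Pax6 to Etv6 ratio of 3.88 (3.23 to 4.30; 24 sites), and those at 50 to 100 bp had 1.64 (1.33 to 3.08; 15 sites). Of the 44 sites, 10 overlapped a peak among the top 20 by score of a library. No control library was used, so binding of the tagged proteins and signal common to all 4 libraries cannot be told apart at these sites, and their tags, folds and spans may not describe binding. Without these sites the share with FLAG summits within 100 bp was 24.5% and the median span 202 bp.

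**Figure D2:**
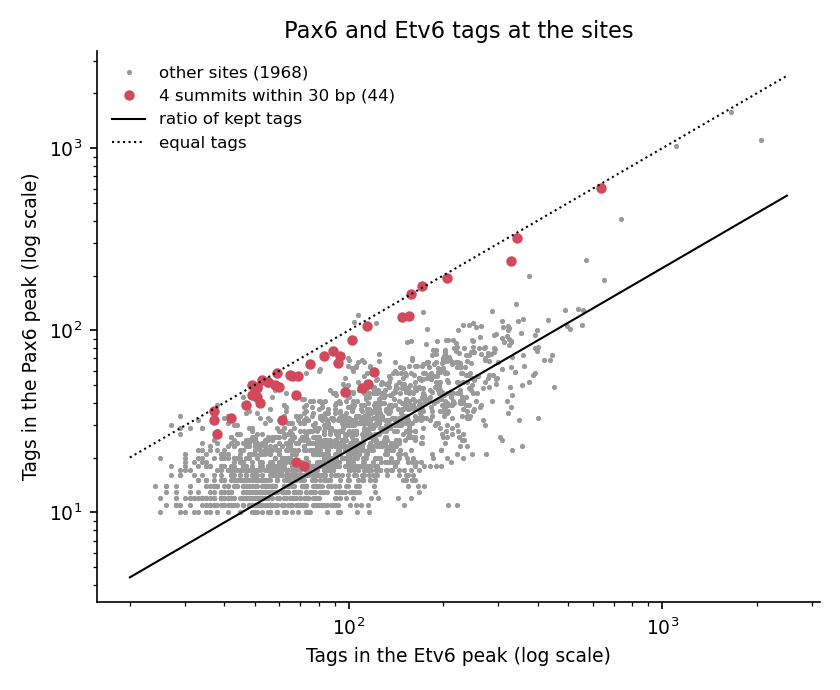
Tags in the Pax6 peak against tags in the Etv6 peak at each of the 2012 sites, both on log scales, with a solid line at the ratio of the libraries' kept tags (0.220) and a dotted line at equal tags. The 44 sites whose 4 summits lie within 30 bp (red) mostly follow the dotted line, with a median ratio of 0.863, and the other 1968 (grey) have a median of 0.265.

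The following individual sites had close summits in all 4 libraries. On chromosome 9 (35112351 to 35113519 in the Etv6 list) the peak held 636 tags in Etv6, 608 in Pax6, 640 in EGFP_OK and 596 in H3K4me2. Its FLAG summits spanned 15 bp, its Etv6 fold enrichment was 25.02, and its ranks were 2 in Etv6, 1 in Pax6, 2 in EGFP_OK and 2 in H3K4me2. On chromosome 12 (3109402 to 3110357) the tags were 343, 320, 340 and 303 in the same order, and on chromosome 14 (86598659 to 86599079) they were 171, 175, 179 and 156. On chromosome 9 at 95325915 to 95326873 the FLAG summits lay at 95326386 in Etv6 and Pax6 and at 95326387 in EGFP_OK, and the tags were 94, 72, 99 and 45. In all, 25 of the 2012 sites overlapped a peak among the top 20 of some library, and 5 of them did so in all 4.

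Sites with tight FLAG summits but more than 30 bp over all 4 summits differed in how similar their tags were. A top-20 site on chromosome 2 (98505869 to 98507896), with FLAG summits within 2 bp and the H3K4me2 summit 70 bp away, held 1657 tags in Etv6, 1585 in Pax6, 1923 in EGFP_OK and 1628 in H3K4me2. Others outside the top-20 regions, chosen after the values had been seen, did not have such similar tags. On chromosome 6 (47727566 to 47729095) the FLAG summits spanned 7 bp, at 47728210 in Etv6, 47728207 in Pax6 and 47728214 in EGFP_OK. The tags there were 260 in Etv6, 80 in Pax6, 146 in EGFP_OK and 1085 in an H3K4me2 peak 5287 bp wide, whose summit lay 91 bp away. On chromosome 15 (50280558 to 50283570) the summits spanned 12 bp, with 491, 130, 87 and 360 tags in that order, and the H3K4me2 summit lay 297 bp from the Etv6 summit. Pax6 tags were well below Etv6 tags at both. The coincident sites overlap with such sites in this respect, since their Pax6 to Etv6 tag ratio ranged from 0.25 to 1.02. A coincident site on chromosome 4 (70038925 to 70039802) held 97 Etv6 and 46 Pax6 tags. A site with the H3K4me2 summit 239 bp away, on chromosome 9 (94850556 to 94851701), held 114 and 58.

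Among sites outside the top 20 of any library, the best placed in all 3 FLAG lists lay on chromosome 3 (95848150 to 95849328). It held 183 tags in Etv6, 54 in Pax6 and 223 in EGFP_OK, at folds of 17.4, 19.2 and 15.1, with the summits within 60 bp. The next was on chromosome 11 (101518644 to 101521155), with 397, 77 and 357 tags and summits within 101 bp. A site on chromosome 17 (39979810 to 39985995) was of a different shape, with 2068, 1112 and 1769 tags in an H3K4me2 peak of 6005 bp at folds of only 3.25, 2.91 and 3.38. A further site on chromosome 11 (87284139 to 87285876) held 278, 73 and 245 tags and one on chromosome 2 (126134870 to 126137457) held 311, 104 and 189.

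H3K4me2 peaks at the sites were broad. Their median width was 2757.5 bp (2665 to 2832) against 1638 bp (1628 to 1649) over the 48520 H3K4me2 peaks of chromosomes 1 to 19, and they ranged from 193 to 8205 bp. Peaks wider than 3 kb held 864 sites, or 42.9% (40.8 to 45.1), against a background of 29.1% over all Etv6 summits in H3K4me2. A wide peak has more room for a summit, so the fairer reference is other Etv6 peaks in the mark. Of the 4099 Etv6 peaks in H3K4me2 with a Pax6 peak but no EGFP_OK peak, 25.8% (24.5 to 27.2) lay in H3K4me2 over 3 kb. For the 2381 with an EGFP_OK peak but no Pax6 peak the share was 36.9% (34.9 to 38.8), and for the 7429 with neither it was 24.6% (23.6 to 25.6). The classes with an EGFP_OK peak thus had the higher shares, with or without Pax6.

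Peaks of these classes also differed in strength and width, with median Etv6 widths of 1420.5 bp at the sites, 1341 bp with Pax6 only, 1169 bp with EGFP_OK only and 1066 bp with neither, and the part of Etv6 width was not tested. To compare like strengths, all marked Etv6 peaks were ranked by Etv6 score and split into 4 groups of equal size. In the highest of these groups, 45.6% (42.6 to 48.7) of 1041 sites lay in H3K4me2 over 3 kb, beside 26.8% (24.9 to 28.9) of those with Pax6 only, 44.7% (39.5 to 49.9) of those with EGFP_OK only and 28.3% (24.96 to 31.8) of those with neither. In the lowest group the shares were 32.5% (25.5 to 40.2) of 169 sites, 26.9% (22.8 to 31.2), 31.1% (27.5 to 34.8) and 22.2% (20.7 to 23.8) in the same order, and there the intervals of both EGFP_OK classes overlapped that of Pax6 only. With a score of at least 100 asked of every FLAG list the sites no longer exceeded the class with EGFP_OK and no Pax6, the difference turning from 6.07 to -1.52 percentage points. The EGFP_OK and H3K4me2 titles both name N31, so the tagged protein and the cells cannot be told apart in this comparison.

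**Figure D3:**
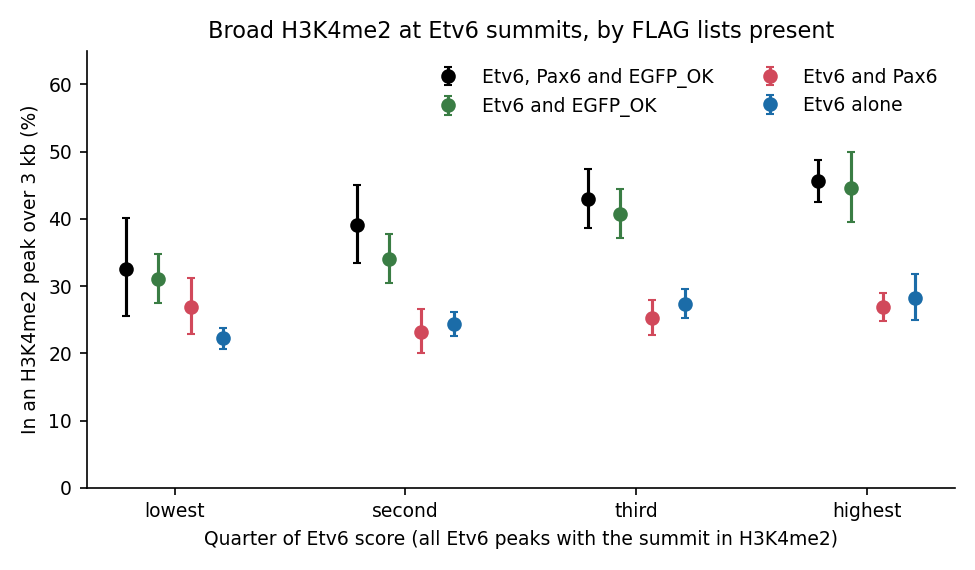
Share of Etv6 peaks in H3K4me2 whose H3K4me2 peak is wider than 3 kb (%, vertical, with 95% binomial intervals) by group of Etv6 score, from lowest to highest (horizontal) and by the FLAG lists that also have a peak there. In the highest group the sites in all FLAG lists (black, 45.6%) and those with EGFP_OK (green, 44.7%) lie above those with Pax6 (red, 26.8%) and with Etv6 alone (blue, 28.3%).

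By tags per kb, the mark was also denser at sites with EGFP_OK. Its peaks were wider there too, with medians of 2757.5 bp at the sites and 2586 bp with EGFP_OK and no Pax6. They were 2158 bp wide with Pax6 and no EGFP_OK and 2079 bp with neither. The part of width in the density was not tested. The median H3K4me2 density was 91.4 tags per kb of peak (89.8 to 93.5) at the sites, 103.6 (101.5 to 105.8) with EGFP_OK and no Pax6, 69.9 (68.95 to 71.2) with Pax6 and no EGFP_OK, and 80.4 (79.5 to 81.9) with neither. Fold enrichment of the mark did not follow the same order, with medians of 5.34 (5.25 to 5.41), 5.77 (5.68 to 5.88), 5.16 (5.10 to 5.23) and 5.65 (5.59 to 5.71). Within the sites, the median density went from 49.0 tags per kb (46.6 to 53.3) in H3K4me2 peaks of up to 1 kb to 113.9 (108.0 to 120.7) in those over 5 kb, while the median fold went the other way, from 7.71 (6.80 to 9.07) to 3.87 (3.73 to 4.04).

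The FLAG summits usually lay beside the H3K4me2 summit rather than on it. The median distance of the Etv6 summit from the H3K4me2 summit was 417 bp (401 to 433), that of the Pax6 summit 432 bp and that of the EGFP_OK summit 434 bp. At 186 sites the Etv6 summit was no more than 100 bp from it, or 9.24% (8.01 to 10.6), against 10.0% over all Etv6 summits in H3K4me2. The most frequent distance was 300 to 400 bp for each FLAG library, with 15.7% of the Etv6 summits, 15.4% of the Pax6 summits and 14.2% of the EGFP_OK summits. EGFP_OK also had 10.98% of its summits within the first 100 bp, more than in the next 100 bp, at 8.90%. The H3K4me2 summit still fell within the borders of the Etv6 peak at 83.1% of the sites (81.4 to 84.7), against 80.4% over all marked Etv6 summits. The median distance was 351 bp (344 to 359) at Etv6 and Pax6 sites without EGFP_OK, 386 bp (361 to 403) with EGFP_OK and no Pax6, and 313 bp (306 to 321) with neither. With a score of at least 100 in every FLAG list the medians were 403 bp (366 to 445) at the sites, 384 bp (372 to 399) with Pax6 only and 432 bp (408 to 462) with EGFP_OK only, so the excess over the Pax6 class went from 66 to 19 bp and that over the EGFP_OK class from 31 to -29 bp.

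**Figure D4:**
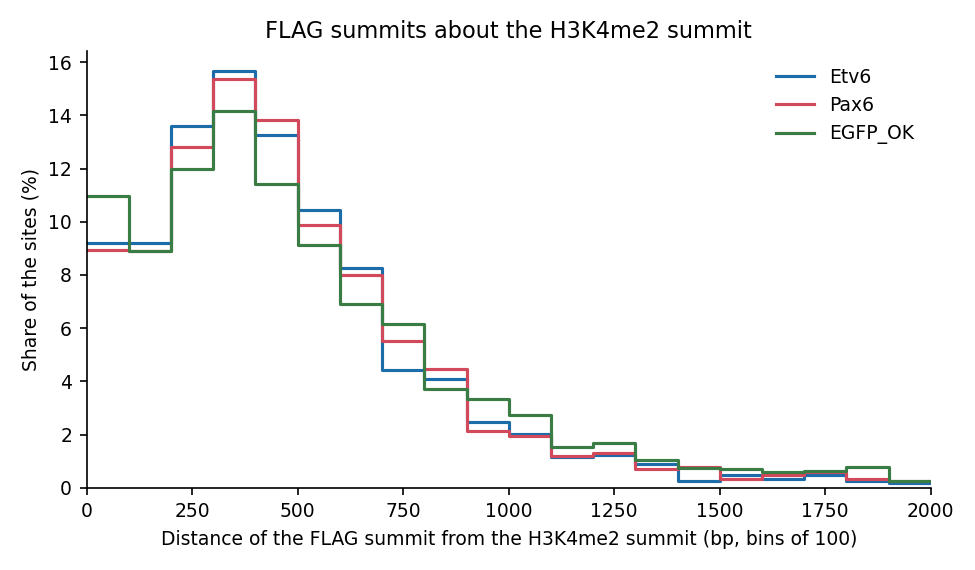
Share of the 2012 sites (%, vertical) by the distance of each FLAG summit from the H3K4me2 summit (bp, horizontal, bins of 100 up to 2000). All 3 libraries are highest at 300 to 400 bp, where 15.7% of the Etv6, 15.4% of the Pax6 and 14.2% of the EGFP_OK summits lie.

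Both the Etv6 and the H3K4me2 summit lie inside the same H3K4me2 peak by the rule, so the width of that peak bounds their distance, and its course with width is given as a description. The distance was a median of 82 bp (21 to 166) at the 119 sites in H3K4me2 peaks of up to 1 kb, which hold most of the coincident sites, 331 bp (305 to 352) at 1 to 2 kb, 395 bp (371 to 414) at 2 to 3 kb, 531.5 bp (506 to 564) at 3 to 5 kb and 702 bp (608 to 869) over 5 kb. Above 1 kb, FLAG tags followed the width, with a median of 71 Etv6 tags (65 to 75) at 1 to 2 kb and 139 (128 to 156) over 5 kb. EGFP_OK tags went from 49 (47 to 54) to 83.5 (76 to 97) and Pax6 tags from 20 (19 to 22) to 32 (29 to 36). The FLAG peaks widened as well, from medians of 1224 to 1997.5 bp in Etv6, 1171 to 1666.5 bp in EGFP_OK and 1032 to 1375.5 bp in Pax6. The part of FLAG peak width in the tags was not tested. Fold enrichment ran the other way, with medians at 1 to 2 kb and over 5 kb of 10.56 (10.51 to 10.97) and 8.54 (8.11 to 8.82) for Pax6 and of 6.88 (6.68 to 7.17) and 5.785 (5.43 to 6.02) for EGFP_OK. For Etv6 they were 7.005 (6.78 to 7.27) and 6.33 (5.96 to 6.78), with intervals that met. In H3K4me2 peaks of up to 1 kb the Pax6 median was 32 tags (27 to 40). Without the coincident sites it was 22.5 (18 to 29) at the remaining 78 of them. A second H3K4me2 peak lay within 1 kb at 10.04% of the sites (8.76 to 11.4), against 12.4% over all marked Etv6 summits.

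High H3K4me2 scores came with FLAG peaks of different strength. The named sites in the top-20 regions, such as the one on chromosome 9 at 35112351 to 35113519, ranked high in the mark and in the FLAG lists alike. Outside those regions, the highest H3K4me2 score belonged to a site on chromosome 11 (115424550 to 115426085), at rank 25 of the H3K4me2 list with 484 tags. Its FLAG peaks held 76 tags in Etv6, 17 in Pax6 and 59 in EGFP_OK, all below the medians of the sites except for EGFP_OK, which was at the median. The site on chromosome 3 (96000663 to 96002544) had 723 H3K4me2 tags and 89 in Etv6. A chromosome 6 site (83456294 to 83457667) had 564 and 88, and a chromosome 14 site (21492232 to 21494018) had 763 and 84. The chromosome 6 site had an Etv6 fold enrichment of 8.17, above the median of the sites. The site on chromosome 7 (7251184 to 7253096) was above it in tags as well, with 163 at 12.4-fold. Across all 2012 sites the rank correlation of H3K4me2 tags was 0.27 with Etv6 tags, 0.16 with EGFP_OK tags and 0.05 with Pax6 tags.

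The balance between the FLAG libraries varied widely from site to site. Tags were counted over whole peaks, whose median widths were 1420.5 bp in Etv6, 1285.5 bp in EGFP_OK and 1113.5 bp in Pax6. No adjustment was made for these widths. To compare the libraries, tags were divided by the library's kept tags. On that scale the EGFP_OK peak had a median of 0.800 times the Etv6 value (0.762 to 0.829), with the middle of the sites, from the 25th to the 75th percentile, between 0.498 and 1.27. EGFP_OK exceeded Etv6 at 745 sites, or 37.0% (34.9 to 39.2), against 38.8% over all 2758 sites of the FLAG lists, which include the 2012. At the 746 sites outside H3K4me2 alone it was 43.6% (40.0 to 47.2). Pax6 exceeded Etv6 at 68.4% (66.3 to 70.4), against 72.4% over the 2758 and 83.1% (80.2 to 85.7) at the 746. The median ratio of Pax6 to Etv6 at the 2012 sites was 1.22 (1.19 to 1.25). Called Pax6 peaks held at least 10 tags, which sets a lower bound on that ratio at weak Etv6 peaks. Outside H3K4me2 the medians were higher, at 0.932 (0.863 to 0.974) for EGFP_OK and 1.52 (1.45 to 1.58) for Pax6, where the Etv6 peaks held fewer tags, at a median of 72.5 (66 to 78). With a score of at least 100 asked of every FLAG list, the median EGFP_OK to Etv6 ratio was 0.898 (0.813 to 0.964) at the marked sites and 0.961 (0.796 to 1.11) outside, with intervals that overlapped.

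Pax6 and Etv6 tags followed each other across the sites more closely than either followed EGFP_OK. The rank correlation over the 2012 sites was 0.67 for Pax6 with Etv6 tags, 0.31 for Pax6 with EGFP_OK and 0.27 for Etv6 with EGFP_OK. Tags also followed peak width within a library, with 0.85 for Etv6 and 0.88 for EGFP_OK. For fold enrichment the values were 0.44, 0.30 and 0.25 in the same order of pairs. The Pax6 and Etv6 titles name NS and the EGFP_OK title names N31, so the tagged protein and the cells cannot be told apart here. By the rule, the Pax6 and EGFP_OK peaks each overlap the Etv6 peak but need not overlap each other.

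The extremes of the EGFP_OK to Etv6 ratio were single sites. One on chromosome 16 (43801748 to 43802508) held 383 EGFP_OK tags beside 26 in Etv6 and 11 in Pax6, a scaled EGFP_OK to Etv6 ratio of 16.5 (11.1 to 25.6), but its EGFP_OK summit lay 1602 bp from the Etv6 summit. On chromosome 2 (22444481 to 22445925) the FLAG summits spanned 13 bp, and EGFP_OK held 512 tags, Etv6 62 and Pax6 39, a ratio of 9.25 (7.09 to 12.2). A site on chromosome 3 (41966206 to 41967094) had 263, 29 and 17 tags and a ratio of 10.2 (6.91 to 15.5). At the other end, a site on chromosome 2 (30295446 to 30299130) held 307 Etv6 tags, 29 EGFP_OK tags and 25 Pax6 tags, a ratio of 0.106 (0.0697 to 0.155), in an H3K4me2 peak of 7858 bp. A site on chromosome 16 (29880783 to 29884375) had 394 Etv6 tags and 36 EGFP_OK tags, and one on chromosome 17 (87599241 to 87603563) had 332 and 29. The H3K4me2 peaks were 1203 to 1570 bp wide at the 3 sites of highest ratio and 4545 to 7858 bp at the 3 of lowest ratio. The choice by ratio itself favours few tags in the one library or the other, and the part of Etv6 width was not tested. Over all sites the median ratio was 1.13 (1.005 to 1.18) in H3K4me2 peaks of up to 1 kb, which hold most of the coincident sites. It was 0.875 (0.825 to 0.910) at 1 to 2 kb, 0.752 at 2 to 3 kb, 0.732 at 3 to 5 kb and 0.717 (0.632 to 0.817) over 5 kb.

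Most sites had no other site close by, and whether they lay closer together than their number alone would give was not tested. The median distance from a site to the nearest other was 201.3 kb (178 to 223), and 98 sites, or 4.87% (3.97 to 5.90), had another within 10 kb. For Etv6 and Pax6 sites in H3K4me2 without EGFP_OK, which are 4099 and therefore denser, the share was 9.002% (8.14 to 9.92). It was 5.25% (4.39 to 6.22) with EGFP_OK and no Pax6. For the FLAG sites outside H3K4me2, which are only 746 and therefore sparser, it was 2.14% (1.23 to 3.46). Over all 15921 marked Etv6 peaks, a much larger set, it was 21.9% (21.2 to 22.5). These shares depend on the size of each set. With a score of at least 100 in every FLAG list the sites and the Etv6 and Pax6 class had overlapping intervals, at 3.87% (2.23 to 6.22) and 4.10% (3.12 to 5.28). Of the windows of 100 kb that held any site, 1605 held a single one, 153 held 2 and 2 held 6.

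A few windows were dense. On chromosome 11, from 87200001 to 87300000, 6 sites had 278 to 445 Etv6 tags, 59 to 81 Pax6 tags and 245 to 328 EGFP_OK tags, all above the medians of the sites, and each had its FLAG summits within 143 bp. On chromosome 13, from 23600001 to 23700000, 6 sites had 92 to 184 Etv6 tags and 122 to 215 EGFP_OK tags, and their H3K4me2 peaks were 3137 to 7655 bp wide. Another window on chromosome 13, from 21900001 to 22000000, held 5 sites, all with more scaled EGFP_OK than Etv6 tags, at ratios of 1.69 to 3.64. These ratios are not independent, since 2 of the sites shared an EGFP_OK peak of 348 tags, beside 107 and 148 Etv6 tags. Another 2 shared one of 96 tags, beside 54 and 38 Etv6 tags. These dense windows differed, then, in the spread of summits, which reached 2327 bp in the first chromosome 13 window, and in the balance of the libraries, which was 0.795 to 1.00 on chromosome 11.

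Of the 9 H3K4me2 peaks that held 2 sites, 3 lay in these windows on chromosome 13. The one at 21973331 to 21976207, had Etv6 summits 1090 bp apart that shared 1 EGFP_OK peak of 96 tags and 1 Pax6 peak of 24. On chromosome 17 (3081440 to 3085887) the Etv6 summits were 1681 bp apart with 419 and 163 tags, each with its own Pax6 peak, of 69 and 64 tags, and with 1 shared EGFP_OK peak of 286 tags. A shared peak enters the values of both of its sites.

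The share of marked Etv6 peaks found in all FLAG lists is set by the rule and is given by chromosome as a description, with no test. It was 17.7% (15.4 to 20.3) on chromosome 13, 17.3% (15.2 to 19.5) on chromosome 3 and 17.3% (13.7 to 21.4) on chromosome 14, against 12.6% over chromosomes 1 to 19. The lowest shares were 7.91% (6.11 to 10.05) on chromosome 8 and 8.48% (6.56 to 10.7) on chromosome 7. Chromosome 3 held 212 of the sites, the most, and chromosome 13 held 174. Chromosomes 3, 14 and 13 held 9.94%, 4.50% and 6.58% of the EGFP_OK list and 7.38%, 2.55% and 6.19% of the Etv6 list. Chromosome 16 also held more of the EGFP_OK list, at 6.14% against 4.78%, with 12.4% of its marked Etv6 peaks in all FLAG lists. Copy number of the chromosomes in these cells was not tested. Of the sites in the 3 FLAG lists, 85.3% (79.2 to 90.2) on chromosome 11 were inside H3K4me2 and 58.7% (47.9 to 68.9) on chromosome 18, against 72.95% in all (71.3 to 74.6).

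**Figure D5:**
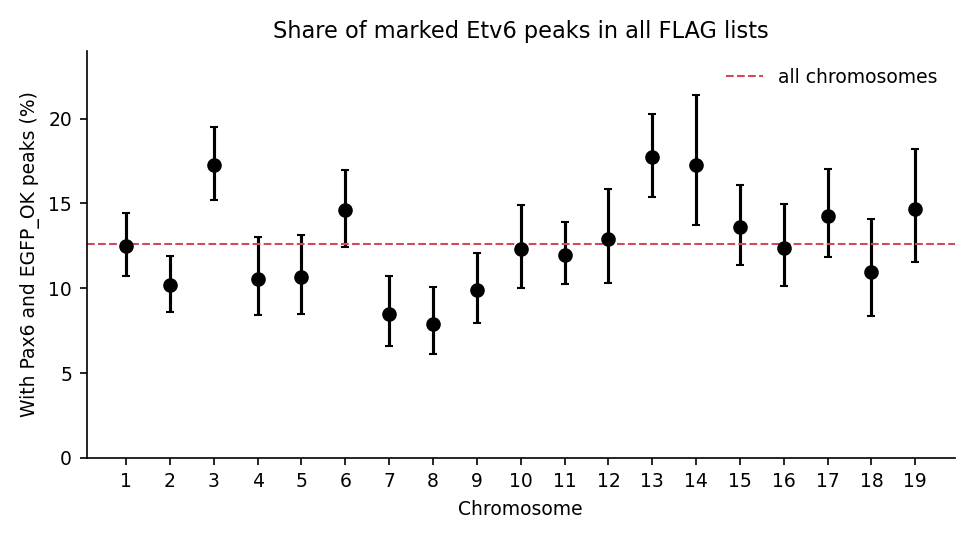
Share of Etv6 peaks with a summit in H3K4me2 that also overlap a Pax6 and an EGFP_OK peak (%, vertical, with 95% binomial intervals) on each of chromosomes 1 to 19 (horizontal), with a dashed line at 12.6% over all of them. The intervals of chromosomes 3, 13 and 14 lie wholly above the line and those of chromosomes 2, 7, 8 and 9 wholly below it.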

How the data were processed

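Peaks were called with MACS 1.4.2 on each library alone, with no control file, a p cutoff of 1e-05, a band width of 300 bp and at most 1 tag kept per position, per the file headers. The submitters' processing notes also name CASAVA 1.8.1, BWA 0.6.2 and the genome build mm9. The deposited count of tags in each peak is not normalized. The score is a multiple of −log10 of the peak's p-value, per the file headers. The fold enrichment is a ratio that the authors' caller took between a peak and the local background in that library, and the file headers name a regional background range of 10000 bp. With no control, local differences in accessibility, mappability or copy number stay in the lists. These scores and folds are the authors' values and were compared only within a list.

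Sites, partners and summits were matched here with pandas 2.3.3, scipy 1.17.1 and numpy 2.4.6 under Python 3.11.15. Each Etv6 peak was paired with the overlapping peak whose summit was nearest. Figures were drawn with matplotlib 3.10.9. On simulated lists of 6000 Etv6 peaks all 1463 planted sites were recovered. Planted partners lay close to the Etv6 summit and other peaks far off, so this checks the code only, not overlaps near peak edges. Intervals are exact (Clopper-Pearson) for shares and order-statistic for medians. Ratios between libraries used tags divided by kept tags, and their intervals at single sites are binomial on the tags of both peaks. Regions were named by rank in the FLAG lists, span of the summits, H3K4me2 score, the EGFP_OK to Etv6 ratio, and windows or H3K4me2 peaks with the most sites. Members, measures and the naming rule were chosen with earlier results of these data known. The reference tables at hand are of GRCm38, another build, so genes, promoters and sequences are not analysed here.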

Additional observations from a re-analysis of the deposited data

Results flagged for a closer look

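Peaks outside chromosomes 1 to 19 were not part of the comparisons and were flagged because more than 3 of them met the rest of the rule. On chromosome X, 12 sites met it out of 122 Etv6 peaks with a summit in H3K4me2, or 9.84% (5.19 to 16.6), with medians of 79 Etv6, 20 Pax6 and 66 EGFP_OK tags and a median span of 153 bp. On chromosome Y and unplaced sequence 9 of 25 met it (17.97 to 57.5%). Their FLAG summits spanned a median of 5 bp, their H3K4me2 peaks were a median of 664 bp wide, and their median tags were 109 in Etv6, 88 in Pax6, 112 in EGFP_OK and 118 in H3K4me2.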

How the results depend on the processing

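No paired analysis was possible because each group held 1 library, and none could be left out. Of the 7 listed alternatives, asking a score of at least 100 of every FLAG list had the most effect. It left 413 sites, since an Etv6 peak could then pair with another overlapping peak that passed, with 34.6% of them having FLAG summits within 100 bp, a median span of 160 bp, a median Etv6 fold enrichment of 8.66, a median scaled EGFP_OK to Etv6 ratio of 0.898 and 3.87% with another site within 10 kb. The same setting turned round the differences between the sites and the Etv6 peaks with EGFP_OK but no Pax6, to -1.52 percentage points for H3K4me2 over 3 kb and to -29 bp for the distance from the H3K4me2 summit. A stricter choice of peaks by construction selects stronger peaks. With an H3K4me2 score of at least 100, the median H3K4me2 fold enrichment was 5.46. The other values of these results stayed within their intervals or, for the count, within 1.5 times, under overlap of at least 50% of the shorter peak, all FLAG summits in H3K4me2, removal of top-20 regions, chromosome X added and 1 site per H3K4me2 peak. They also did so without the 44 sites of coincident summits, an alternative chosen after the data had been seen. Over all of these settings the share in H3K4me2 over 3 kb exceeded that of Etv6 and Pax6 sites without EGFP_OK by 13.7 to 18.6 percentage points. Depth limits the Pax6 side most: a site needed at least 10 Pax6 tags, so sites with a weaker Pax6 signal were not counted.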

Other observations

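The presence of an EGFP_OK peak at a marked Etv6 peak went with the presence of Pax6, and less so among strong Etv6 peaks. Of the 6111 Etv6 peaks in H3K4me2 with a Pax6 peak, 32.9% (31.7 to 34.1) had an EGFP_OK peak, against 24.3% (23.4 to 25.1) of the 9810 without one. With marked Etv6 peaks in 4 equal groups by Etv6 score, in the lowest the shares were 27.1% (23.7 to 30.8) and 19.1% (17.7 to 20.4). In the third they were 32.4% (30.1 to 34.7) and 29.8% (27.98 to 31.7), and in the highest 35.6% (33.9 to 37.4) and 34.5% (31.6 to 37.5). The intervals overlapped in both of these upper groups. A wider Etv6 peak can overlap more peaks of any list, and the part of Etv6 width was not tested. These shares use the same lists as the choice of sites and are a description.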
